A study of Mus musculus with 16 samples.

Results

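The nuclear genes for the mitochondrial respiratory chain and the ATP synthase were followed in mouse aortic smooth muscle cells from cultures labelled WT and Hey2 KO. Members were the probe sets with exactly 1 gene symbol that starts with Nduf, Uqcr, Atp5 or Cox followed by a digit from 4 to 8, or that is Sdha, Sdhb, Sdhc or Sdhd. This rule used names and no measured value. It gave 179 probe sets for 90 genes, out of 34945 probe sets for 18193 genes with 1 symbol each. For each gene the tested probe set with the highest mean signal was used, and 86 of the 90 members had one; Ndufa4l2, Ndufb4, Cox7b2 and Cox8b had no probe set above the filter.

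The respiratory chain passes electrons from NADH through complex I (the Nduf genes) and from succinate through complex II (the Sdh genes) to ubiquinone, then through complex III (the Uqcr genes), cytochrome c and complex IV (the Cox genes) to oxygen. Complexes I, III and IV pump protons across the inner membrane, and the ATP synthase (the Atp5 genes) uses that gradient to make ATP. The mitochondrial genome encodes some subunits, and the nucleus encodes the members described here along with the assembly factors. Vascular smooth muscle uses both oxidative phosphorylation and glycolysis, and its energy use changes when the cells divide.

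RNA was measured on Affymetrix mouse arrays in cells cultured from minced, digested aortas freed of adventitia, on a mixed C57BL/6 and 129SvJ background, at passage 10 to 20. Cultures labelled WT and cultures labelled Hey2 KO were serum starved for 48 hours in 0.4% FCS and then given 5 ng/ml human PDGF-BB, a growth factor that drives smooth muscle cells to divide and migrate. RNA was taken at 0, 15, 30, 60, 120, 180, 240 and 480 min, with 1 array for each genotype and time, so 8 arrays a genotype and 16 in all. Hey2 is a transcriptional repressor downstream of Notch. The labels do not tell how many mice or isolates stand behind a genotype, nor which part of Hey2 was deleted. The p-values therefore measure the spread between these arrays, which may be technical, and genotype cannot be told apart from isolate. Arrays of cells without PDGF-BB at later times were not analysed here, so PDGF-BB and time in fresh medium cannot be told apart.

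The deposited signal had a 2% trimmed mean per array from 81.0 to 342.5, and the arrays were quantile normalized. The lowest of these means was that of the WT 30 min array, an early array, and the next lowest was 163.5 (WT 240 min). With 1 array per genotype and time, precision is set by the number of arrays. On its 1 probe set, Hey2 ran from 14.0 to 113.3 (median 47.3) in the wild type and from 23.3 to 63.3 (median 34.6) in the knockout. Knockout minus wild type gave -0.19 in log2 units (limma adjusted p = 0.697, SE 0.32), higher in the knockout at 4 of 8 times. No source used here says whether this probe set lies in the deleted part, and the genotypes below are the labelled ones. Of 12 markers of contractile smooth muscle, 9 had lower values with the knockout label and 3 did not pass the test, and their summed signal was 20868 to 24835 in the wild type and 13420 to 16378 in the knockout. Of 10 markers of mesothelium and epithelium, 8 were higher and 1 lower, with sums of 1733 to 2982 and 13528 to 16006. Of 7 tested fibroblast markers, 4 were higher and 1 lower, with sums of 3324 to 11377 and 4094 to 8146. Of 8 tested cardiac and skeletal muscle markers, 1 was higher and 3 lower, with sums of 388.5 to 863.4 and 282.0 to 423.9. The defining markers Pecam1, Cdh5 and Vwf of endothelium and Ptprc, Cd3e and Itgam of leukocytes were below the filter. The 4 tested markers of each summed to 74.7 to 121.4 in the wild type and 75.2 to 113.5 in the knockout for endothelium, and to 81.8 to 396.3 and 119.2 to 796.0 for leukocytes. Of 6 adipocyte markers on the array 1 was tested and was higher, at 8.05 to 48.5 in the wild type and 51.2 to 128.4 in the knockout. The part of these markers in the genotype results below was not tested, and in such bulk RNA fewer cells of a type and less RNA per cell cannot be told apart.

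A pair of wild-type libraries stood out of the time order. Ndufaf4, the member with the widest spread, had a signal of 1322 in the library labelled WT 60 min and 382 in the library labelled WT 480 min, where the knockout had 332 and 1093. Cox7a2l had 1658 and 2656 in those wild-type libraries, against 3091 and 1707 in the knockout. In both genes the library labelled WT 60 min lay near the knockout at 480 min, and the library labelled WT 480 min lay near the wild type at 0 to 30 min. The labels were kept. The genotype comparison is given with and without the 60 and 480 min arrays, and the time comparison uses the other 12 arrays.

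The median member varied less across the 16 arrays than the median gene. The median SD of a member's log2 value was 0.21, against 0.42 over the 14299 genes tested, and the members' probe sets were also brighter (median log2 value 11.09 against 7.61). Ndufaf4 had the widest spread among members, with an SD of 0.88. Next came Cox4i2 (0.85), Cox6b2 (0.64) and Cox6a2 (0.52), which are isoforms of complex IV subunits found mainly in lung, testis and striated muscle and were close to the filter signal of 16 here, then Ndufaf6 (0.51) and Atp5md (0.45). Levels were not compared between genes, since probe sets differ in how strongly they bind.

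Respiratory chain subunits were more often higher than lower in the knockout. Of 86 tested members, 42 were higher (48.8%), 6 were lower (6.98%) and 38 did not pass the test. Over all 14299 genes, 16.5% were called higher and 14.1% lower. The differences were small: the median over members was 0.20 on the log2 scale, against -0.02 over all genes, with a range from -0.37 to 0.85. Genotype was tested with limma on log2(signal + 4.856), with time as a block and Benjamini-Hochberg adjustment at 0.05 over all genes; SE is that of this fit. In 28 members the knockout was higher at all 8 times and in 6 it was lower at all 8, against 11.6% and 8.92% of all genes. Without the 60 and 480 min arrays, the counts were 50 and 7 and the median 0.21. With the signals left as deposited, the median of all genes itself moved to 0.28, 15 members were called higher and 0 lower, and the members' median stood 0.24 above that of all genes, as against 0.21 above it after quantile normalization. Of the 22 members below 0 after quantile normalization, 20 were above 0 with the signals as deposited, among them 4 of the 6 called lower; no member went from above to below 0. Of all called genes, 87.9% were higher with the signals as deposited and 54.0% after quantile normalization. As deposited, 15 of 87 tested members were called higher, beside 1882 of all genes. The share of all tested genes behind that count is not given here. An excess of members over all genes is therefore not claimed for the signals as deposited. After quantile normalization it was 42 of 86 members, beside 2366 of 14299 genes. The count of higher calls thus fell more among members than among all genes, and the members' excess of calls depends on the scaling.

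**Figure D1:**
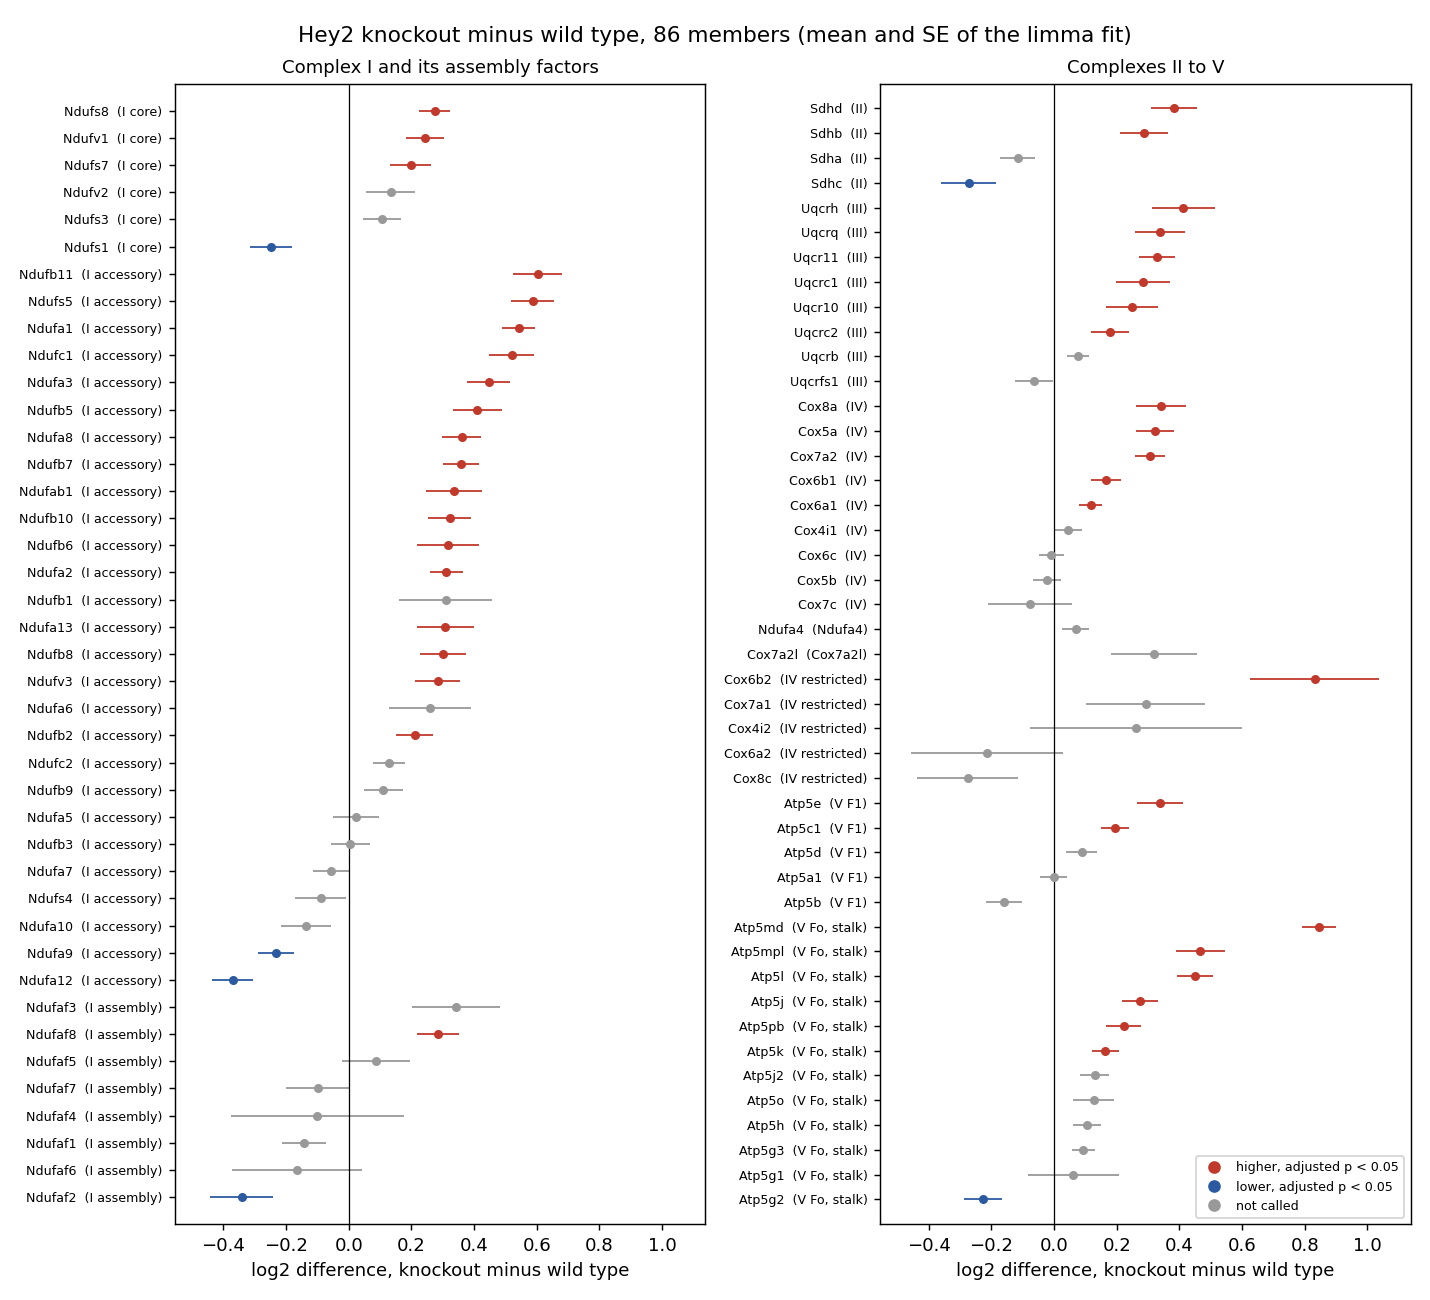
Knockout minus wild-type difference (log2 scale, x axis) of the 86 tested members, grouped by complex; points are fitted values, bars are the SE of the limma fit, and red and blue mark members called higher or lower at an adjusted p under 0.05. The 42 red points run across complexes I to V, with Atp5md highest at 0.85, and the 6 blue points end at Ndufa12 with -0.37.

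The members' median difference was above 0 at each labelled time, though little above it at 60 min. The median knockout minus wild-type difference of the members was 0.11 at 0 min, 0.23 at 15 min, 0.18 at 30 min, 0.06 at 60 min, 0.17 at 120 min, 0.27 at 180 min, 0.19 at 240 min and 0.14 at 480 min. The smallest of these values was at 60 min, where 53 of 86 members were higher in the knockout, and the count was highest at 15 min, with 68. The 60 min value lay near the residual SD of an array's median over members in the genotype design, 0.05. The wild-type libraries at 60 and 480 min are the pair that stood out of the time order. Over all genes the share higher in the knockout ran from 47.1% to 51.8% at these times.

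**Figure D2:**
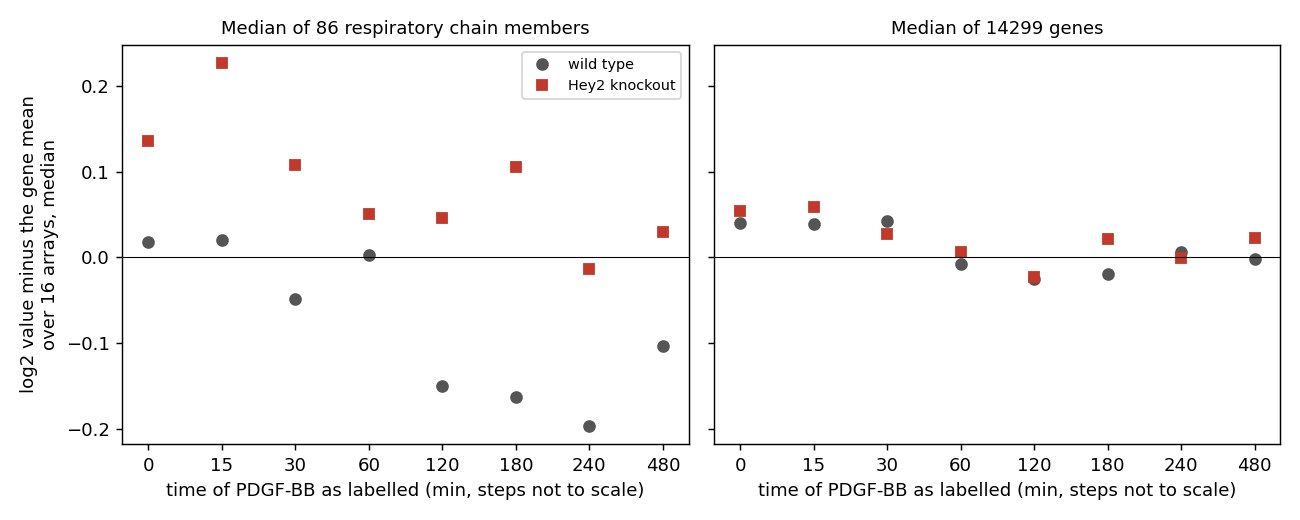
Median over the 86 members (left) and over 14299 genes (right) of each gene's log2 value minus its mean over the 16 arrays, for every array, against the labelled time in min (steps not to scale). On the left the knockout arrays sit between -0.01 and 0.23 and the wild-type arrays between -0.20 and 0.02, with the knockout above the wild type at every time; on the right both lie close to 0.

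The counts by complex depend on the scaling too. With the signals as deposited, members called higher in complex I numbered 8 of 28 accessory subunits, 0 of 6 core subunits and 0 of 8 assembly factors. They numbered 0 of 4 in complex II and 1 of 8 in complex III. In complex IV it was 2 of 9 ubiquitous subunits and 1 of 5 tissue-restricted isoforms. In the ATP synthase it was 0 of 5 in the F1 part (head and central stalk) and 3 of 12 in the membrane part and peripheral stalk. With arrays scaled to 1 trimmed mean, the counts were 15 of 28 accessory subunits, 6 of 8 in complex III and 3 of 9 ubiquitous subunits of complex IV. Over all genes, 1882 were called higher with the signals as deposited and 2269 with 1 trimmed mean, against 2366 after quantile normalization. The shares of all tested genes under the first 2 scalings are not given here. The counts by complex under them are therefore not read as an excess over all genes. The counts that follow are those after quantile normalization.

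Complex I is the largest complex and the entry point for electrons from NADH. With its assembly factors it held 20 of the 42 higher and 4 of the 6 lower members. It also supplied 27 accessory subunits, 6 core subunits and 8 assembly factors of the 86 tested members. Its part of the higher members thus lay near its part of the list. Of its 27 tested accessory subunits, which surround and stabilise the catalytic core, 16 were higher, 2 lower and 9 not called; their median was 0.31. Of 6 tested core subunits, 3 were higher and 1 lower; their median was 0.17. Of 8 assembly factors, 1 was higher and 1 lower; their median was -0.10.

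Ndufb11, an accessory subunit of the membrane arm, had a signal of 2269 to 3746 in the wild type (median 2907) and 3743 to 5188 in the knockout (median 4634). The lowest knockout array, at 480 min, lay just under the highest wild-type array, at 15 min, and at each time the knockout was higher. The difference was 0.60 (SE 0.08, limma adjusted p = 1.93e-04), and the gene's 3 probe sets gave 0.60, 0.62 and 0.74. Ndufs5, a small subunit on the intermembrane side of that arm, ran from 879 to 1161 in the wild type (median 1010) and from 1442 to 1643 in the knockout (median 1514). Its groups did not overlap, and the difference was 0.59 (SE 0.07, limma adjusted p = 8.69e-05).

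Ndufa1, another small membrane arm subunit that is needed for assembly, ran from 3658 to 4437 in the wild type (median 4127) and from 5313 to 6240 in the knockout (median 5968). These groups did not overlap either, and the difference was 0.54 (SE 0.05, limma adjusted p = 2.67e-05). Further accessory subunits of the membrane arm differed by similar amounts: Ndufc1 differed by 0.52 (limma adjusted p = 2.91e-04) and Ndufa3 by 0.45 (limma adjusted p = 5.93e-04), each higher in the knockout at 8 of 8 times. Among core subunits, Ndufv1, which binds the FMN that takes electrons from NADH, was higher by 0.24 (limma adjusted p = 0.0107).

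The lower members of complex I were Ndufa12, Ndufaf2, Ndufs1 and Ndufa9. Ndufa12, an accessory subunit of the peripheral arm, ran from 4130 to 5712 in the wild type (median 4746) and from 3333 to 4300 in the knockout (median 3796). The knockout was lower at each time, by 0.37 on the log2 scale (a difference of -0.37, SE 0.07, limma adjusted p = 1.59e-03). Its probe sets disagreed: the others gave -0.18, 0.21 and -0.01, none of them called, and the median of the 4 probe sets gave 0.01. Ndufaf2, an assembly factor and paralog of Ndufa12, ran from 269 to 388 in the wild type and from 212 to 282 in the knockout, with a difference of -0.34 (SE 0.10, limma adjusted p = 0.0236). Ndufs1, the largest core subunit, carrying iron-sulfur clusters, differed by -0.25 (limma adjusted p = 0.0155). Ndufa9, an accessory subunit near the ubiquinone site, differed by -0.23 (limma adjusted p = 0.0107). Ndufaf2, Ndufs1, Ndufa9 and Ndufa12 were lower in the knockout at 8 of 8 times; with the signals as deposited, Ndufs1 and Ndufa9 stood at 0.08 and 0.11, below the all-gene median of 0.28.

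Complex II, which oxidises succinate and also belongs to the citric acid cycle, was split. Sdhd, a membrane anchor, ran from 654 to 806 in the wild type (median 704) and from 810 to 1060 in the knockout (median 937), without overlap, a difference of 0.38 (SE 0.07, limma adjusted p = 2.22e-03). Sdhb, the iron-sulfur subunit, ran from 1142 to 1590 in the wild type (median 1217) and from 1443 to 1727 in the knockout (median 1508), with overlap through the library labelled WT 60 min, and differed by 0.29 (SE 0.08, limma adjusted p = 0.0149). Sdhc, the other membrane anchor, went the other way: it ran from 1217 to 2083 in the wild type (median 1491) and from 1126 to 1388 in the knockout (median 1242), a difference of -0.27 (SE 0.09, limma adjusted p = 0.0370). The Sdhc groups overlapped, and its second probe set gave -0.51; with the signals as deposited the difference was 0.07, below the all-gene median. Sdha, the flavoprotein that binds succinate, had a difference of -0.12 (limma adjusted p = 0.151).

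Complex III, which passes electrons from ubiquinol to cytochrome c, had 6 of 8 members higher in the knockout (1 of 8 with the signals as deposited), and the other 2 did not pass the test; the median was 0.27. The hinge subunit Uqcrh ran from 2011 to 3323 in the wild type (median 3159) and from 2715 to 4549 in the knockout (median 4010). The groups overlapped at the knockout 240 and 480 min arrays, and the difference was 0.41 (SE 0.10, limma adjusted p = 8.93e-03). The core proteins Uqcrc1 and Uqcrc2 differed by 0.28 (limma adjusted p = 0.0280) and 0.18 (limma adjusted p = 0.0436). The Rieske iron-sulfur protein Uqcrfs1, which is part of the catalytic centre, had -0.06 (limma adjusted p = 0.474).

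For complex IV, the terminal oxidase, 9 ubiquitous nuclear subunits among the members were tested, which need not be all of them. Of these, 5 were higher and the other 4 did not pass the test, with a median of 0.12. Among the 4, Cox7c was read on a dim probe set, with a mean signal of 58.7. Cox7a2, the widely expressed form of subunit VIIa, ran from 4364 to 5313 in the wild type (median 4631) and from 5213 to 6355 in the knockout (median 5892), a difference of 0.31 (SE 0.05, limma adjusted p = 6.11e-04). The groups overlapped slightly, at the wild-type 60 min and the knockout 480 min arrays. Cox8a, a small subunit, differed by 0.34 (SE 0.08, limma adjusted p = 7.52e-03), Cox5a by 0.32 (SE 0.06, limma adjusted p = 2.36e-03) and Cox6a1 by 0.12 (limma adjusted p = 0.0310). Cox4i1, the main form of the regulatory subunit IV, ran from 5576 to 6479 in the wild type and from 5615 to 6563 in the knockout, almost the same range (0.05, limma adjusted p = 0.450). Ndufa4, once assigned to complex I and now regarded as a complex IV subunit, was counted apart from these 9. It had 0.07 (limma adjusted p = 0.278).

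Of 7 tissue-restricted isoforms of complex IV, 5 were tested and 1 passed the test. Cox6b2, the testis form of subunit VIb, ran from 11.4 to 50.7 in the wild type (median 31.6) and from 37.8 to 63.7 in the knockout (median 58.0), a difference of 0.83 (SE 0.21, limma adjusted p = 0.0102). Its groups overlapped and its values lay close to the filter. Cox4i2, the hypoxia-responsive form of subunit IV, ran from 2.44 to 36.0 in the wild type and from 1.87 to 29.7 in the knockout (0.26, SE 0.34). Cox7a1 and Cox6a2, the striated muscle forms of their subunits, had 0.29 (SE 0.19) and -0.21 (SE 0.24), and neither passed the test. Cox8b, another striated muscle form, and Ndufa4l2, a hypoxia-induced paralog of Ndufa4, were below the filter.

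The ATP synthase had 8 of 17 members higher and 1 lower. In the F1 part, whose head makes ATP, 2 of 5 subunits were higher, with a median of 0.09. These were Atp5c1 (0.19) and Atp5e (0.34), which belong to the central stalk. The head subunits Atp5a1 and Atp5b were not among them, at -0.00 (limma adjusted p = 0.988) and -0.16 (limma adjusted p = 0.0558). Atp5b is the catalytic subunit of the head. Without the 60 and 480 min arrays Atp5b was lower, at -0.18. In the membrane part and peripheral stalk, the count was 6 of 12 higher and 1 lower, with a median of 0.15.

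Atp5md, a small membrane subunit that helps ATP synthase dimers form, was the member with the largest difference. Its wild-type signals from 0 to 480 min were 2878, 2427, 2397, 2749, 2377, 2528, 2392 and 2107. Its knockout signals at the same times were 4909, 4437, 4166, 4118, 4583, 4786, 4580 and 4051. The highest wild-type array lay well below the lowest knockout array, and the difference was 0.85 (SE 0.05, limma adjusted p = 1.25e-06). Atp5mpl, another small subunit of the dimer region, differed by 0.47 (SE 0.08, limma adjusted p = 9.43e-04), with 1055 to 1559 in the wild type and 1681 to 2093 in the knockout. Atp5l, subunit g of the same membrane region, ran from 2463 to 3406 in the wild type and from 3586 to 4245 in the knockout, a difference of 0.45 (SE 0.06, limma adjusted p = 1.63e-04). In these 3 genes the groups did not overlap. Atp5g2, 1 of 3 genes for the proton-carrying c subunit, went the other way (-0.23, limma adjusted p = 0.0155; 0.12 with the signals as deposited), while Atp5g1 and Atp5g3, which encode the same mature protein, had 0.06 and 0.09 and did not pass the test.

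**Figure D3:**
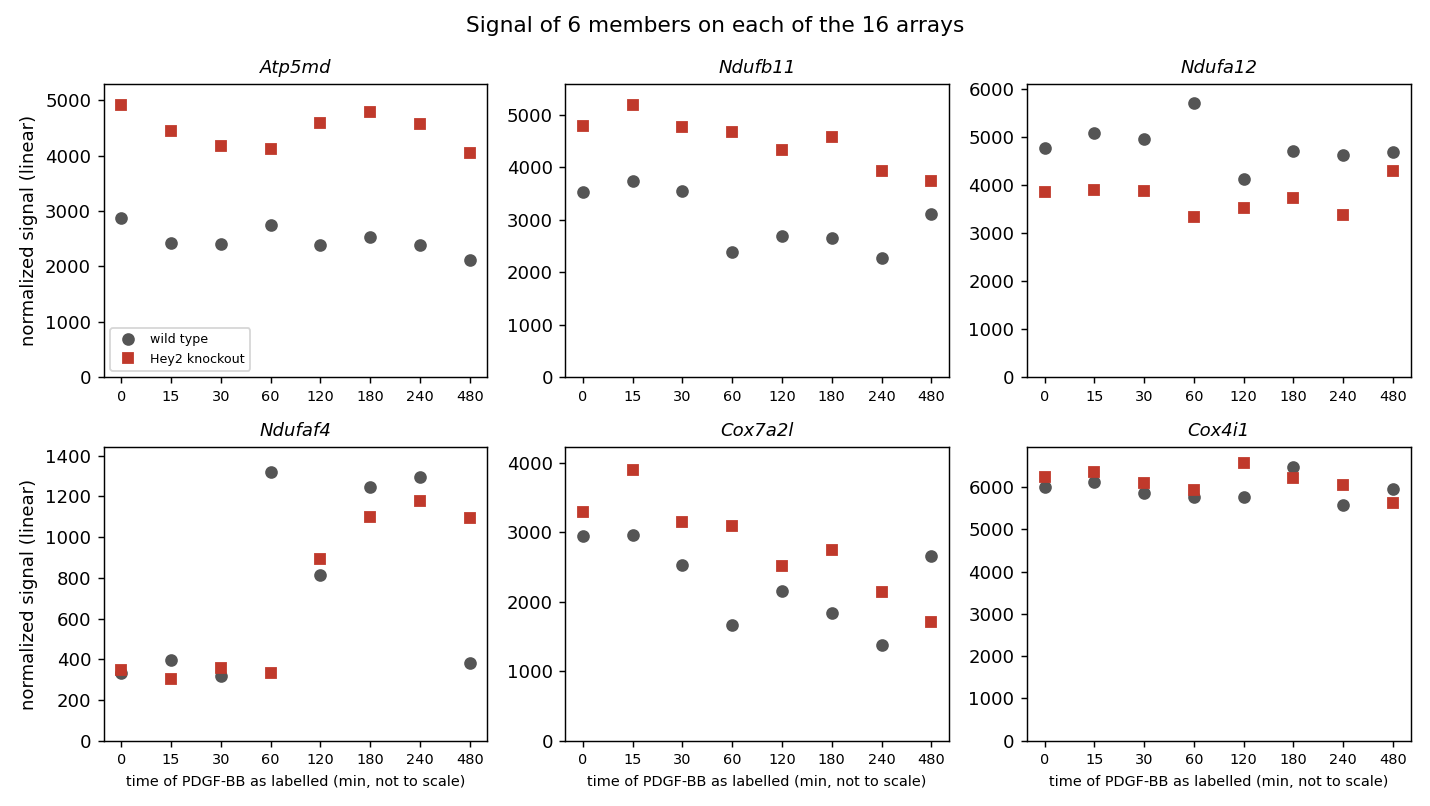
Normalized signal (linear, y axis from 0) of Atp5md, Ndufb11, Ndufa12, Ndufaf4, Cox7a2l and Cox4i1 on each array against the labelled time of PDGF-BB in min (steps not to scale); circles are wild type and squares knockout. Atp5md lies at 2107 to 2878 in the wild type and 4051 to 4909 in the knockout, and Ndufaf4 at 60 and 480 min shows the pair of wild-type libraries that stand out of order.

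The promoters of the member with the largest genotype difference and of the complex I member with the largest one are shown because the factors known to drive respiratory chain genes bind short, defined motifs. RefSeq promoter windows of assembly GRCm38.p6, each 250 bases before to 50 after a start, were matched for 74 of the 90 members (79 windows). The NRF1 core GCATGCGC was in 13.9% of member windows and 2.71% of all 32851 windows. The ETS core bound by GABP, CCGGAAG, was in 24.1% and 8.86%, the YY1 core AAGATGG in 13.9% and 6.34%, and the ERR site CAAGGTCA in 5.06% and 1.56%. The E-box CACGTG was in 8.86% and 7.15%, and the TATA box TATAAA in 11.4% and 13.6%. Both strands were searched for exact matches; the NRF1 core overlaps its own reverse complement where the 2 strands are hit at 1 place. A match describes letters and is no evidence of binding. After quantile normalization, called higher in the knockout were 16 of 19 members with the ETS core, 7 of 11 with NRF1 and 7 of 11 with YY1. With the ERR site it was 3 of 4, with the E-box 3 of 6 and with the TATA box 5 of 8. Called lower were 1 with NRF1, 1 with YY1 and 0 with the others. Of all tested members, 42 of 86 were higher and 6 lower. The part of the motifs in these counts was not tested. The printed stretches run from 150 bases before the start to 30 after it, with motif matches in capitals. Atp5md (chr19:47090618-47090797, minus strand) held a TATA box and an ETS core, both on the opposite strand. Ndufb11 (chrX:20617590-20617769, minus strand) held none of the 6 motifs in this stretch.
Atp5md: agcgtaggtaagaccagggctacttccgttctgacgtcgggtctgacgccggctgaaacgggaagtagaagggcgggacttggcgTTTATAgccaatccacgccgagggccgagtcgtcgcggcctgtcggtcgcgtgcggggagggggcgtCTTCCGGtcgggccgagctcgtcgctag
Ndufb11: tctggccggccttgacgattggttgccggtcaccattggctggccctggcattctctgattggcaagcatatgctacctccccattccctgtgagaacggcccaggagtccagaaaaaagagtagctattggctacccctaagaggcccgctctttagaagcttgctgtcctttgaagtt

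From the early (0, 15 and 30 min) to the late arrays (120, 180 and 240 min), 1 assembly factor of complex I rose about as much in both genotypes, while most other changes were small decreases. Of 86 members, 41 were lower late (47.7%), 5 were higher (5.81%) and 40 did not pass the test; over 13913 genes, 26.3% were called lower and 17.3% higher. The median over members was -0.14, against -0.07 over all genes, with a range from -0.58 to 1.64. The direction of the list as a whole depends on the scaling: the members' median stood 0.07 below that of all genes after quantile normalization, 0.02 below it with arrays scaled to 1 trimmed mean, and 0.01 above it with the signals as deposited. The numbers called lower were 41, 28 and 0 under these scalings, and of all called genes 39.6%, 33.7% and 77.9% were higher. Those shares were 2400 of 6059, 2123 of 6306 and 1137 of 1459 called genes. With 1 trimmed mean, fewer members but more of all genes were called lower than after quantile normalization. The members' excess of lower calls was therefore smaller there. In 27 members the late arrays were all below the early arrays in both genotypes, and in 3 all above, against 17.3% and 11.2% of all genes. Of the 76 members below 0 after quantile normalization, 63 were above 0 with the signals as deposited, among them 30 of the 41 called lower. Leaving out the arrays of 0, 15 or 240 min brought the count of lower members to 24, 22 and 26. The count was 18 with all 16 arrays as labelled, 9 with 0 min alone as early and 26 without the variance trend.

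RNA quality moved with time as well. The ratio of 3' to 5' signal of Actb ran from 2.41 to 3.88 on the early and from 1.53 to 1.84 on the late wild-type arrays, and from 1.95 to 3.71 and 1.54 to 2.44 in the knockout. For Gapdh it was 3.22 to 4.49 and 2.59 to 3.21 in the wild type, and 3.19 to 5.65 and 2.44 to 4.64 in the knockout. The part of these ratios in the changes with time was not tested. Marker lists of cell types moved with time too. Of 12 contractile markers, 6 were higher and 1 lower late, and of 7 fibroblast markers 4 were lower. Of 10 markers of mesothelium and epithelium, 3 were higher (Krt8 by 1.82, Krt18 by 1.75 and Krt19 by 1.88) and 2 lower. Of 4 tested leukocyte markers 1 was higher, Csf1r by 2.96, and the other 3 were below 0 and not called. Their sum ran from 81.8 to 179.3 early and from 208.4 to 796.0 late, without overlap. This rise of the sum rests on Csf1r alone, and the median of the 4 was -0.01. Ptprc, Cd3e and Itgam were below the filter. Of 8 cardiac and skeletal muscle markers, 2 were higher and 2 lower, and the endothelium and adipocyte lists had none called. The part of these markers in the changes with time was not tested.

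**Figure D4:**
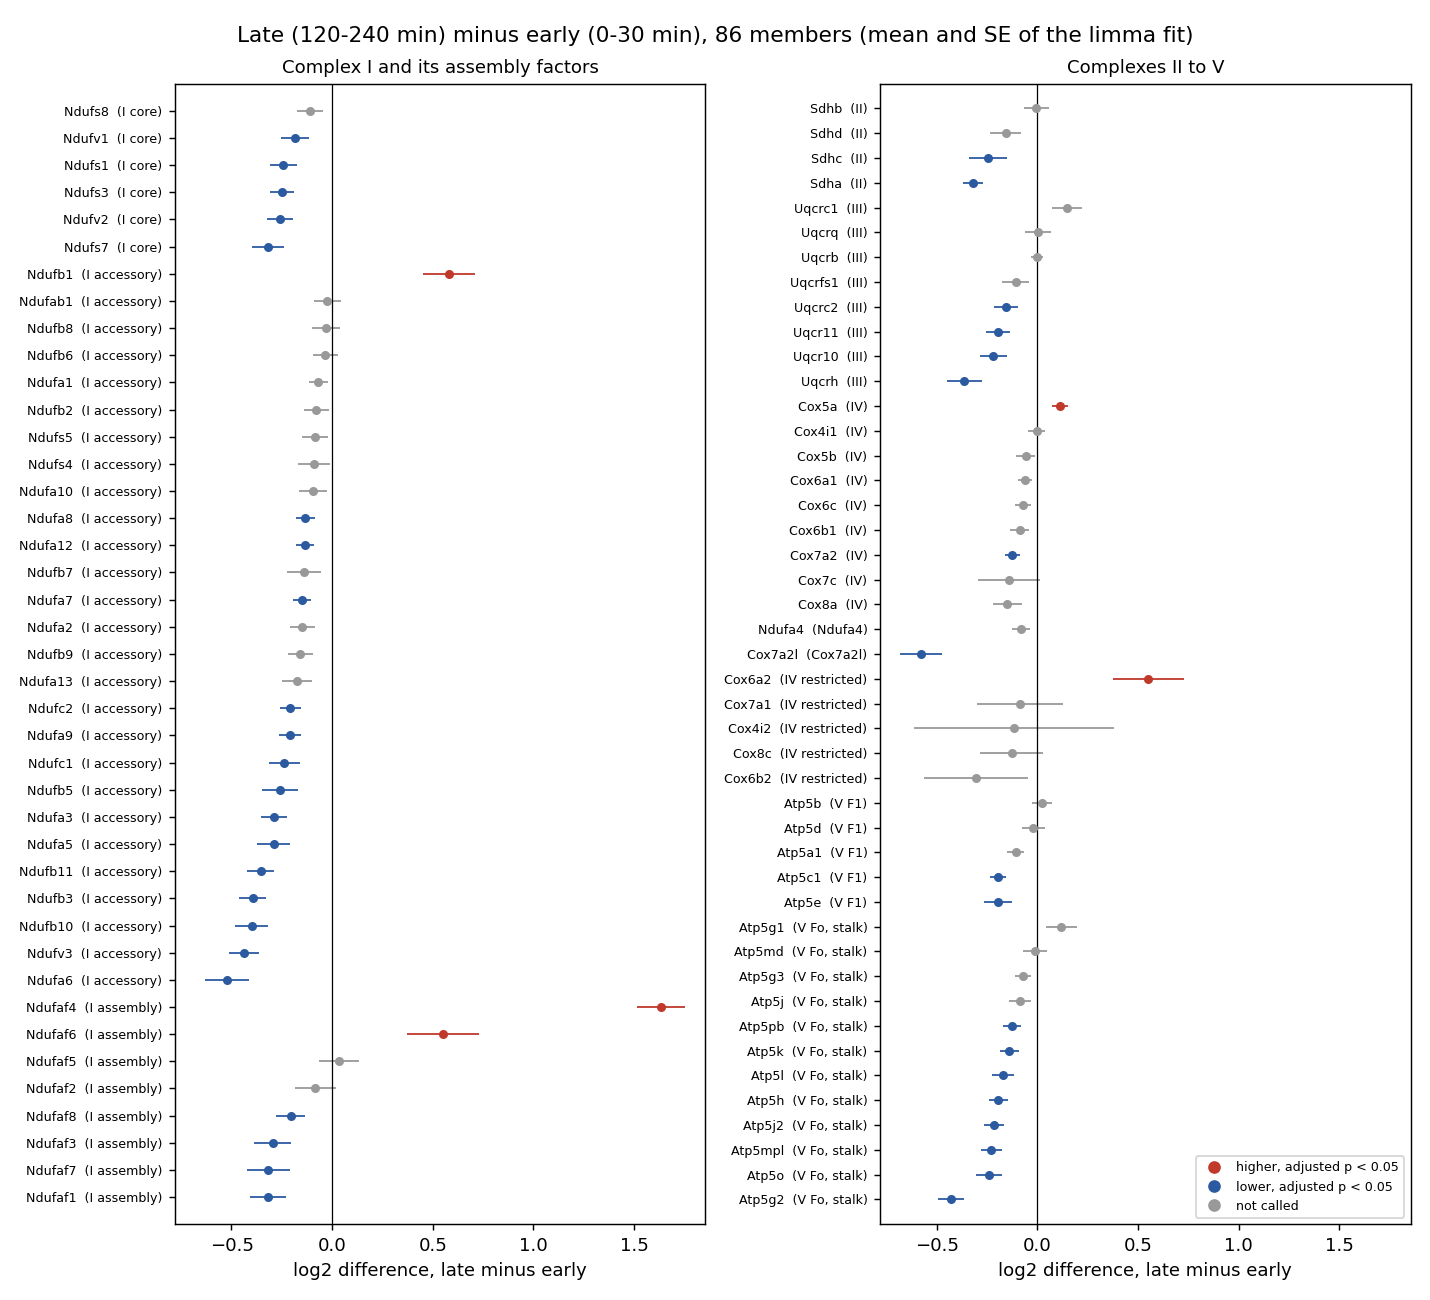
Late (120 to 240 min) minus early (0 to 30 min) difference (log2 scale, x axis) of the 86 tested members, grouped by complex; points are fitted values, bars are the SE of the limma fit, and red and blue mark members called higher or lower at an adjusted p under 0.05. Ndufaf4 stands apart at 1.64, Cox7a2l is lowest at -0.58, and the other called members lie between -0.52 and 0.58.

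Ndufaf4, an assembly factor that helps build the ubiquinone-binding module of complex I, had wild-type signals of 331, 398 and 319 early and 816, 1248 and 1295 late. In the knockout they were 349, 304 and 359 early and 894, 1100 and 1177 late. The late arrays lay far above the early ones in both genotypes. The difference was 1.64 (SE 0.12, limma adjusted p = 1.48e-07), with 1.64 in the wild type and 1.63 in the knockout (limma interaction adjusted p = 0.988), and the second probe set gave 1.50. It was 1.95 with the signals as deposited, where Ndufaf4 was the 1 member called, and 1.63 with 1 trimmed mean.

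Its promoter is shown because Ndufaf4 was the member that rose most, beside that of Cox7a2l, which fell most. The Ndufaf4 stretch (chr4:24897933-24898112, plus strand) held the NRF1 core at 2 places, at the first of them on both strands with overlap, and the Cox7a2l stretch (chr17:83514304-83514483, minus strand) held none of the 6 motifs. Windows of 11 member genes held the NRF1 core. Of these 11, Ndufaf4 was the 1 called higher late, 6 were called lower and 4 did not pass the test. The 6 were Ndufa6 (-0.52), Atp5g2 (-0.43), Uqcr11 (-0.20), Atp5l (-0.17), Atp5k (-0.14) and Ndufa8 (-0.13). This count lay near that of all tested members, where 41 of 86 were lower late (47.7%). For the other motifs, lower late were 9 of 19 members with the ETS core, 7 of 11 with YY1 and 1 of 4 with the ERR site. With the E-box it was 4 of 6, and with the TATA box 4 of 8.
Ndufaf4: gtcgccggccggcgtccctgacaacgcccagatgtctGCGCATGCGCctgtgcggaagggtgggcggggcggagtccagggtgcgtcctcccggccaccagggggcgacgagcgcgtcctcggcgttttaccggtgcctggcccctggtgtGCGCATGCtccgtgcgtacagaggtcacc
Cox7a2l: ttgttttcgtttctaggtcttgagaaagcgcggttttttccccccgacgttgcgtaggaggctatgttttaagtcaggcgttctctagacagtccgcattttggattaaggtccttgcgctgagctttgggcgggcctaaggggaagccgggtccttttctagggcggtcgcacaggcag

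The other members that rose were Ndufb1, Ndufaf6, Cox6a2 and Cox5a. Ndufb1, a small membrane arm subunit of complex I, had 93.1, 86.6 and 127 early and 149, 168 and 182 late in the wild type, and 107, 153 and 141 early and 163, 194 and 202 late in the knockout. The late arrays were above the early ones in both genotypes, by 0.58 (SE 0.13, limma adjusted p = 1.96e-03). Ndufaf6, another complex I assembly factor, rose by 0.55 (SE 0.18, limma adjusted p = 0.0210), and the striated muscle isoform Cox6a2 by 0.55 (SE 0.18, limma adjusted p = 0.0191) at signals of 18.7 to 52.0 on these arrays. Cox5a, a subunit of complex IV, rose by 0.11 (limma adjusted p = 0.0282), and its other probe sets gave 0.06 and 0.00.

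Cox7a2l, which joins complexes III and IV into supercomplexes, fell most. Its wild-type signals were 2950, 2962 and 2520 early and 2155, 1842 and 1369 late, and its knockout signals 3283, 3893 and 3146 early and 2508, 2745 and 2131 late. The late arrays were below the early ones in both genotypes. The difference was -0.58 (SE 0.10, limma adjusted p = 4.22e-04), the other probe sets gave -0.61 and -0.61, and with the signals as deposited it was -0.23 and did not pass the test (limma adjusted p = 0.738). Between genotypes Cox7a2l had 0.32 (SE 0.14, limma adjusted p = 0.104), and without the 60 and 480 min arrays it was higher in the knockout by 0.38 and passed the test.

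Ndufa6, an accessory subunit that holds the mitochondrial acyl carrier protein on complex I, had 2511, 2104 and 2001 early and 1794, 1501 and 1068 late in the wild type, and 2568, 2631 and 2282 early and 2045, 1895 and 1658 late in the knockout. It fell by 0.52 (a difference of -0.52, SE 0.11, limma adjusted p = 1.41e-03), with no overlap in either genotype. Further accessory subunits that fell were Ndufv3 (-0.44), Ndufb10 (-0.40), Ndufb3 (-0.40) and Ndufb11 (-0.35), along with the assembly factor Ndufaf1 (-0.32). Outside complex I, Atp5g2 fell by 0.43 (a difference of -0.43, limma adjusted p = 9.64e-05), Uqcrh by 0.36 (-0.36, limma adjusted p = 3.66e-03) and Sdha by 0.32 (-0.32, limma adjusted p = 1.22e-04; 0.03 with the signals as deposited).

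By role, 5 of 6 core and 14 of 27 accessory subunits of complex I were called lower late. The same held for 8 of 12 subunits of the ATP synthase membrane part and peripheral stalk. For complex IV the count was 1 of 9 ubiquitous subunits, for complex III 4 of 8, for complex II 2 of 4 and for the F1 part 2 of 5. Relative to all genes, the medians of the core and accessory subunits of complex I were -0.18 and -0.08 after quantile normalization, but -0.04 and 0.00 with the signals as deposited. Cox4i1, Sdhb, Uqcrb and Uqcrq had -0.00, -0.00, -0.00 and 0.00 and did not pass the test.

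The change with time was not found to differ between genotypes for any member. The interaction called 0 of 86 members by limma, against 108 of 13913 genes (0.776%), and at an unadjusted p under 0.05 it had 4 members (4.65%) against 11.3% of all genes. The members' median late minus early difference was -0.14 in the wild type and -0.13 in the knockout. The 4 members were Ndufc2 (0.23), Ndufb11 (0.31), Ndufb10 (0.32) and Uqcrc1 (-0.31), each as the knockout change minus the wild-type change, with limma adjusted p from 0.257 to 0.412. The median SE of a member's interaction was 0.13, and differences well above that were not called either. Ndufb11, at 0.31 with an SE of 0.11, had a limma adjusted p of 0.298. A loss in 1 genotype of a change as small as the members' median could therefore go uncalled.

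Assembly factors and carriers outside the rule were mixed. For comparison with this and the further lists, 16.5% of all genes were called higher and 14.1% lower in the knockout. Late, 17.3% of all genes were called higher and 26.3% lower. Of 15 complex IV assembly factors, 4 were higher and 1 lower in the knockout. The higher ones included the copper handling proteins Cox19 (0.90, limma adjusted p = 1.31e-05) and Cox17 (0.47, limma adjusted p = 6.11e-04), and the lower one was Coa3 (-0.30; 0.04 with the signals as deposited). Surf1, another complex IV assembly factor, was higher in the knockout (0.56) and fell with time (-0.64, limma adjusted p = 7.26e-05). Of 18 assembly factors of the other complexes, 4 were higher (22.2%) and 3 lower (16.7%) in the knockout. With time 2 rose (11.1%) and 6 fell (33.3%). Sdhaf3, an assembly factor of complex II, was lower in the knockout (-0.60), Sdhaf4 fell with time (-1.09, limma adjusted p = 1.90e-05) and Ttc19, which acts on complex III, rose (0.94, limma adjusted p = 5.37e-05).

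The soluble electron carrier cytochrome c, Cycs, rose with time by 0.36 (SE 0.06, limma adjusted p = 3.69e-04) and had a genotype difference of -0.20 (limma adjusted p = 0.251). Its complex III partner cytochrome c1, Cyc1, which the naming rule does not take in, rose by 0.18 (limma adjusted p = 0.0478). Its genotype difference was -0.19 (limma adjusted p = 0.272), with the knockout higher at 1 of 8 times. Cyc1 is thus not among the 8 complex III members counted above. Slc25a5, an exchanger of ADP and ATP, was higher in the knockout (0.56, limma adjusted p = 0.0149) and rose with time (0.52, limma adjusted p = 6.15e-04). Over the list of 15 carriers and related genes, 3 were higher and 2 lower in the knockout, and 3 rose and 3 fell with time. The shares between genotypes, 20.0% and 13.3%, lay near those of all genes.

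Of 16 tested regulators of mitochondrial biogenesis, 7 rose and 2 fell with time, with a median of 0.17; between genotypes 2 were higher and 4 lower in the knockout, with a median of -0.18. Pprc1, a growth-responsive coactivator related to Ppargc1a, had 440, 482 and 436 early and 1368, 1373 and 1260 late in the wild type, and 403, 355 and 428 early and 1006, 896 and 942 late in the knockout. It rose by 1.40 (SE 0.08, limma adjusted p = 2.86e-08), and its genotype difference was -0.38 (limma adjusted p = 0.0735). Nrf1, a transcription factor of respiratory chain genes, rose by 0.67 (limma adjusted p = 3.60e-04). Esrra, the nuclear receptor ERR alpha, rose by 0.58 (limma adjusted p = 1.26e-03) and was also higher in the knockout, by 0.67 (SE 0.11, limma adjusted p = 1.21e-03), with 167 to 359 in the wild type and 279 to 474 in the knockout. Gabpa and Tfam passed neither test (0.17 and -0.11 between genotypes, 0.03 and 0.15 with time). Ppargc1b, a coactivator, was below the filter signal of 16 on each wild-type array (3.14 to 13.9) and at 26.5 to 69.2 in the knockout. It was 1 of the 2 regulators counted as higher, beside Esrra. Because it entered the test only through its knockout arrays, its call carries no weight in that count. Ppargc1a was below the filter.

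**Figure D5:**
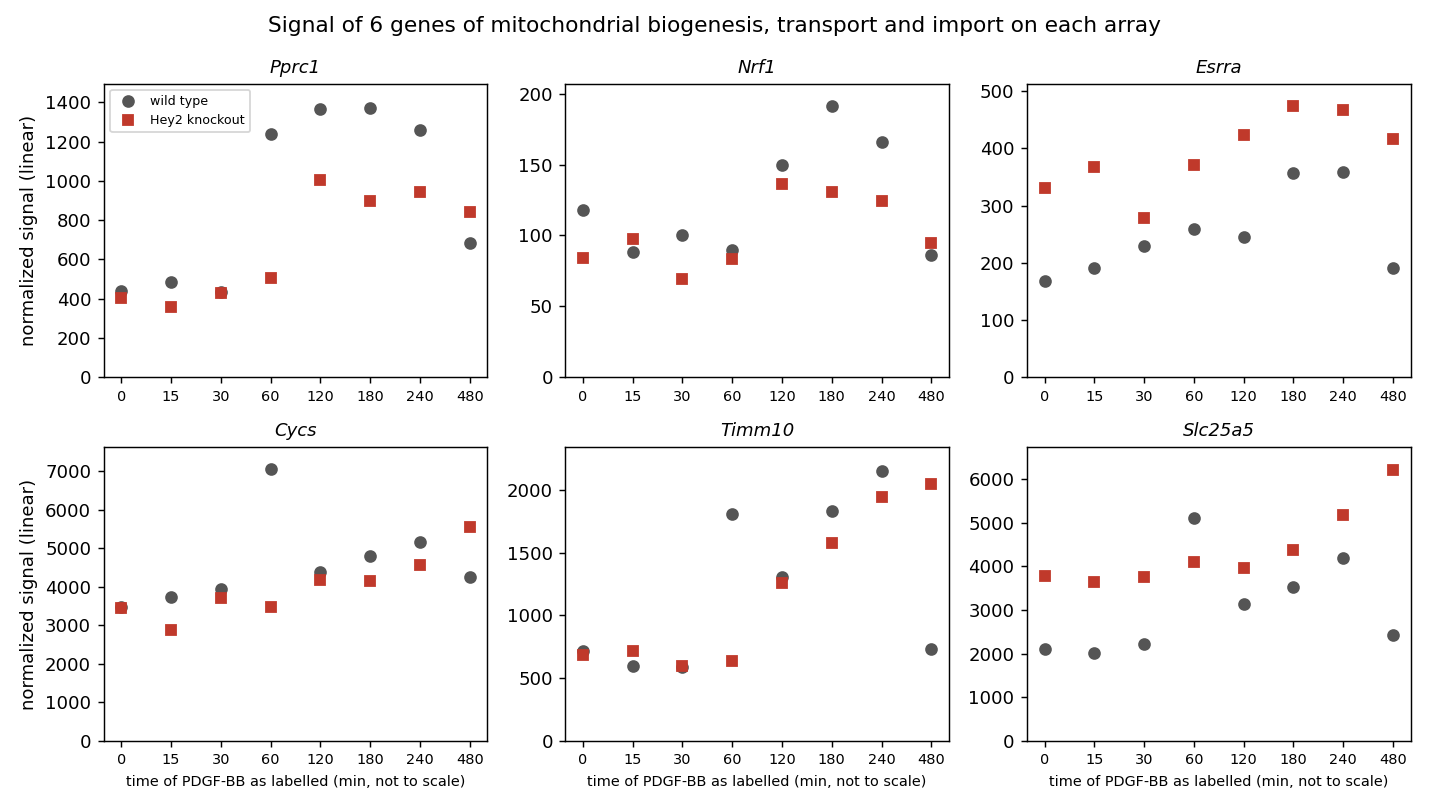
Normalized signal (linear, y axis from 0) of Pprc1, Nrf1, Esrra, Cycs, Timm10 and Slc25a5 on each array against the labelled time of PDGF-BB in min (steps not to scale); circles are wild type and squares knockout. Pprc1 rises from 355 to 482 on the early arrays to 896 to 1373 on the late ones, and the wild-type 60 and 480 min libraries of Pprc1, Timm10 and Slc25a5 stand out of the time order.

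Import proteins, which carry nuclear-encoded subunits into mitochondria, rose in 9 of 21 tested cases and fell in 3. Timm8a1, Timm10 and Timm9, small chaperones of the intermembrane space, rose by 1.69 (limma adjusted p = 3.25e-06), 1.34 (limma adjusted p = 1.64e-06) and 1.15 (limma adjusted p = 4.62e-06), while Timm21 fell (-0.83). Between genotypes 3 import proteins were higher and 3 lower (14.3% each), near the shares of all genes. The 76 mitochondrial ribosomal proteins had 14 higher (18.4%) and 9 lower (11.8%) in the knockout, with a median of -0.05. With time 17 rose (22.4%) and 21 fell (27.6%), with a median of -0.03. These shares lay near those of all genes, which were 16.5% and 14.1% between genotypes and 17.3% and 26.3% with time. Of 12 citric acid cycle enzymes, 4 were higher in the knockout, among them Idh3g (0.39) and Idh3b (0.31), and 8 did not pass the test; 3 rose and 7 fell with time. Of 11 hypoxia-induced genes of metabolism, 4 were higher in the knockout and 7 did not pass the test. The higher ones included Pdk1 (0.65), Egln3 (1.41) and Car9, which had 12.2 to 42.8 in the wild type and 652 to 969 in the knockout. With time 6 of them rose and 2 fell.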

How the data were processed

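The authors made the deposited signal intensities, on a linear scale with 1 value per probe set and array, with MAS5, per the submitters' processing notes. No source used here gives the version or settings. Of 45101 probe sets, 64 were controls, 932 had several gene symbols and 9160 had none; these were left out.

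From these values the arrays were quantile normalized and put on the scale log2(signal + 4.856), where the added offset is the 20th percentile of all values and makes changes of dim genes look smaller. Tested probe sets had a signal above 16 on at least 3 arrays. Linear models were fitted in limma 3.58.1 (R 4.3.3) with eBayes(trend = TRUE), and p-values were adjusted over all genes by Benjamini-Hochberg. The genotype fit had time as a factor (7 residual degrees of freedom), the late minus early fit had genotype (9), and the interaction 8. The fits were tested on simulated data.

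The members, gene lists and tests were chosen with earlier results of these data known. Named were up to 10 called members per direction and comparison with the largest differences, a set of members and regulators chosen by function, and up to 3 called genes per further list. Other genes, such as the 4 with a low unadjusted interaction p, were named after their values were seen. Alternatives changed the scaling, the offset, the filter, how probe sets stand for genes, the variance trend, the blocks, the early baseline or left out each time.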

Additional observations from a re-analysis of the deposited data

Results flagged for a closer look

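In the wild type, the signal of Sdhb in the library labelled WT 60 min was 1590, and the next highest of the 8 wild-type arrays was 1328. On the log2 scale the gap was 0.545 of the range, past Dixon's 95% critical value for 8 values. Of the 86 sets of values checked, those of the named members in each genotype, this was the 1 with such a gap, and chance gives one in about 5% of sets. The 8 values are different times and not replicates. The same library stood out of the time order in Ndufaf4 and Cox7a2l.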

How the results depend on the processing

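With the signals as deposited, the members' median genotype difference was 0.52, with 15 called higher and 0 lower. The late minus early median was 0.16, with 1 called higher and 0 lower, and the interaction median was -0.00049, under a shift of the median of all genes to 0.28 and 0.15. Of 86 members, 20 genotype and 63 late minus early differences changed sign there, 4 and 30 of them in called members. Genotype differences of called, named genes that changed sign were Sdhc 0.067, Ndufs1 0.082, Ndufa9 0.11, Atp5g2 0.12, Coa3 0.044 and Vdac2 0.11. Late minus early differences of called, named genes that changed sign were Cox7a2 0.12, Sdha 0.032, Sdhc 0.12, Uqcrc2 0.21, Ndufs1 0.11, Ndufv1 0.18, Ndufc1 0.12, Atp5mpl 0.13, Atp5l 0.16, Ndufa3 0.064, Ndufa12 0.13, Ndufa9 0.15, Idh3g 0.00047, Idh3b 0.14 and Suclg2 0.076. With the median of a gene's probe sets, the genotype difference of Ndufa12 was 0.012. Members called higher late numbered 2 with 1 trimmed mean, 1 with all 16 arrays and 2 with 0 min alone as the baseline; those called lower numbered 26 without the variance trend, 18 with all 16 arrays and 9 with 0 min alone. Leaving out 1 time gave 2 to 4 higher and 22 to 45 lower late, and 34 to 44 higher and 4 to 7 lower between genotypes. With each probe set as a feature, a setting chosen after seeing the data, 76 of 170 were higher in the knockout and 72 lower late. The causes were not tested. The genotype comparison paired the arrays of the same time through the time block, and without this block 38 members were called higher and 5 lower. Beyond this pairing by time, no paired analysis was possible because the labels number no replicates. The interaction called 0 members in each alternative run.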
